A study of Mus musculus with 4 samples.

Results

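Cells take up iron by binding transferrin to its receptor, drawing the receptor into acid endosomes, reducing the released iron and moving it into the cytosol, where ferritin stores what is not used. Iron regulatory proteins tie these steps together: when iron is scarce they bind hairpins called iron-responsive elements (IREs), which blocks translation of mRNAs that carry the hairpin in the 5′ UTR and stabilises the transferrin receptor mRNA, which carries several in its 3′ UTR. Maturing red cells make hemoglobin and are known for a very high demand on this uptake route. The 10 genes described here were chosen by name as the parts of that route: the transferrin receptors Tfrc and Tfr2, the endosomal reductase Steap3, the endosomal exporter Slc11a2, the cell-surface exporter Slc40a1, the ferritin chains Fth1 and Ftl1, the ferritin autophagy receptor Ncoa4, and the iron regulatory proteins Aco1 and Ireb2. Each had 1 row among the 47935 loci of the table, and all 10 were among the 12890 loci tested. The Ftl1 row also carried the symbol Gm22133, a microRNA gene of 109 bases that lies on the same strand inside Ftl1, and is therefore a shared row.

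The samples were MEL cells, a mouse erythroleukemia line held at an early erythroid stage that takes up erythroid-like differentiation in dimethyl sulfoxide (DMSO). RNA depleted of ribosomal RNA was sequenced from 2 DMSO-induced samples, grown with 1.5% DMSO, and 2 uninduced samples, grown in the same base medium of DMEM with serum. No genotype, clone or length of exposure was given in the sources used here, and nothing said that samples of a group came from separate cultures. The spread behind every p-value is therefore that between these samples, and it may be technical. The deposited values were FPKM, which count fragments per kilobase of transcript and per library size. From the smallest steps between low values, and if library size alone set the scale, relative depths were 0.70 and 0.74 for DMSO-induced 1 and 2 and 0.92 for uninduced 1, with uninduced 2 set at 1. On the same assumption the thinnest value of the 10 genes, Ireb2 in uninduced 2, rested on about 198 fragments.

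Of the 9 erythroid markers, 8 were above 1 FPKM in every sample, and the membrane anion exchanger Slc4a1 measured 82.8 and 186 FPKM in DMSO-induced but 0.49 and 0.56 FPKM in uninduced samples. The erythroid factor Gata1 measured 346 and 473 FPKM in DMSO-induced samples and 247 and 289.8 FPKM in uninduced samples. It did not pass the test described below (limma adjusted p = 0.138). The summed level of the 9 erythroid markers was 58799 and 112434 FPKM in DMSO-induced and 1311 and 1721 FPKM in uninduced samples. In DMSO-induced samples the globin genes Hba-a1 (40300.5 and 67689 FPKM) and Hbb-bs (15799.8 and 39766.6 FPKM) made up most of that sum. Of 7 macrophage markers 6 stayed under 1 FPKM in every sample and Vcam1 was listed at 0 throughout. The summed macrophage level was 2.13 and 1.12 FPKM in DMSO-induced samples against 7.31 and 4.77 FPKM in uninduced samples. Cd68 made up most of it, with 1.72 and 0.67 FPKM in DMSO-induced and 7.09 and 4.68 FPKM in uninduced samples, while Csf1r measured 0.38 and 0.38 FPKM in DMSO-induced and 0.2 and 0.06 FPKM in uninduced samples. The 3 lymphoid and 3 stromal markers stayed under 1 FPKM. Of 4 megakaryocyte markers 3 were above 1 FPKM in every sample, and the sum was 198 and 282 FPKM in DMSO-induced and 251 and 406 FPKM in uninduced samples. They did not move one way. The platelet chemokine Pf4 measured 106 and 138 FPKM in DMSO-induced and 198 and 329 FPKM in uninduced samples. The row of Itga2b, which it shares with Gpatch8, measured 85.9 and 136 FPKM in DMSO-induced and 46.8 and 69.5 FPKM in uninduced samples. Gp1bb, in a row shared with Sept5, overlapped between the groups, and Ppbp was at most 0.24 FPKM. In bulk samples, fewer cells of a type and less RNA per cell cannot be told apart.

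The IRE sequences are shown first because 5 of the 10 genes carry at least a near match in their mRNAs. Of the 3 that rose in the test described below, Tfrc and Ftl1 carry a full one and Ncoa4 carries none. Fth1 and Slc40a1 also carry a full one but did not pass that test. Transcripts of GENCODE M21 (GRCm38) were searched for the canonical hairpin: an unpaired C, 5 bases, the loop CAGTGN and 5 bases that pair with the first 5, with G-T pairs allowed, on the transcript strand only. The motif as letters is CNNNNNCAGTGN. Each site below is the hairpin with 6 flanking bases on either side, 5′ to 3′, with the unpaired C and the loop in capitals. The sites in 5′ UTRs are those of Fth1 at chr19:9982732-9982760 (plus strand, 132 bases before the start codon), Ftl1 at chr7:45459779-45459807 (minus strand, 170 bases before), Slc40a1 at chr1:45925465-45925493 (minus strand, 224 bases before), and of 1 gene outside the 10, the erythroid heme synthesis enzyme Alas2, whose site is read across a splice junction within chrX:150547458-150552149 on the plus strand.
Fth1: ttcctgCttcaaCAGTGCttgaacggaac
Ftl1: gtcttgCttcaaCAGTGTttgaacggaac
Slc40a1: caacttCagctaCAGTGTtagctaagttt
Alas2: ttggttCgtcctCAGTGCagggcaacagg

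The 3′ UTR of Tfrc held 4 full hairpins, at chr16:32631219-32631247, chr16:32631598-32631626, chr16:32631663-32631691 and chr16:32631710-32631738 on the plus strand, which start 889, 1268, 1333 and 1380 bases after the stop codon. In all 4 the unpaired C is followed by a stem that starts with GG, and the flanks are rich in A and T.
Tfrc site 1: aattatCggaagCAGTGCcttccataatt
Tfrc site 2: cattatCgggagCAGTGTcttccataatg
Tfrc site 3: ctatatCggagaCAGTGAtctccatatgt
Tfrc site 4: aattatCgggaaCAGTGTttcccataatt

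The 3′ UTR of Slc11a2 held no full hairpin under this rule, but held 1 with 4 of the 5 stem pairs, at chr15:100395153-100395181 on the minus strand, 38 bases after the stop codon.
Slc11a2: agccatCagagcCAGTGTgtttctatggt

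A full hairpin was found in the 5′ UTR of 28 of 20847 protein-coding genes (0.134%) and in the 3′ UTR of 127 of 20928 (0.607%); among 5′ UTRs between 1/2 and 2 times as long as that of Fth1 the share was 0.156%, and among 3′ UTRs between 1/2 and 2 times as long as that of Tfrc it was 1.16%. Of the 20928 genes, Tfrc was the 1 with 4 or more hairpins in its 3′ UTR. In the transcripts used for Tfr2, Steap3, Ncoa4, Aco1 and Ireb2 no hairpin was found in either UTR at 5 or at 4 stem pairs. These are matches of letters, and the FPKM of a row pools all its transcripts, with and without such a site.

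**Figure D1:**
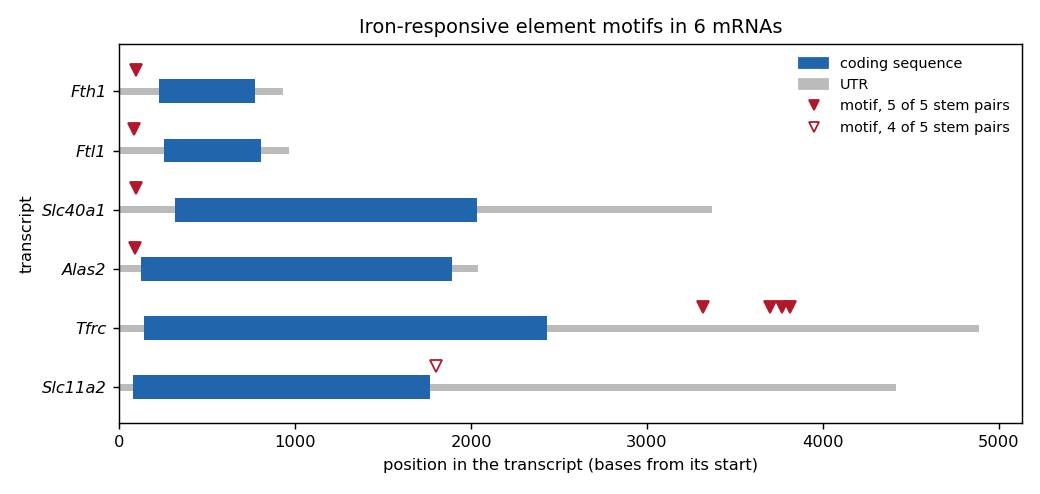
Positions of the IRE hairpin motif in 6 reference transcripts, drawn to scale in bases from the transcript start, with the coding sequence as a thick bar, UTRs as a thin bar and motifs as triangles (filled for 5 of 5 stem pairs, open for 4 of 5). Fth1, Ftl1, Slc40a1 and Alas2 each carry 1 filled triangle in the 5′ UTR, Tfrc carries 4 in the 3′ UTR, and Slc11a2 carries 1 open triangle just past its coding sequence.

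The comparison asked how transcript levels differed between the DMSO-induced and the uninduced state. In it, 3 of the 10 genes rose (Tfrc, Ftl1 and Ncoa4), none fell and 7 stayed above the threshold of 0.05 for the adjusted p of limma-trend on log2(FPKM + 1). Over all tested loci 26.2% were called, 11.5% higher and 14.7% lower. The median log2 fold change of the 10 was 0.62, against 0.03 for all tested loci. The DMSO-induced values lay above both uninduced values for 5 of the 10 genes, below both for 2, and overlapped for 3; among tested loci 36.1% lay above and 34.7% below, 70.8% in all. Each of the 3 calls was lost when any 1 sample was left out, and when loci with low values were kept in the fit. Fold changes are given on the log2(FPKM + 1) scale with limma's moderated SE, and levels as mean ± SD over n = 2 samples per group.

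**Figure D2:**
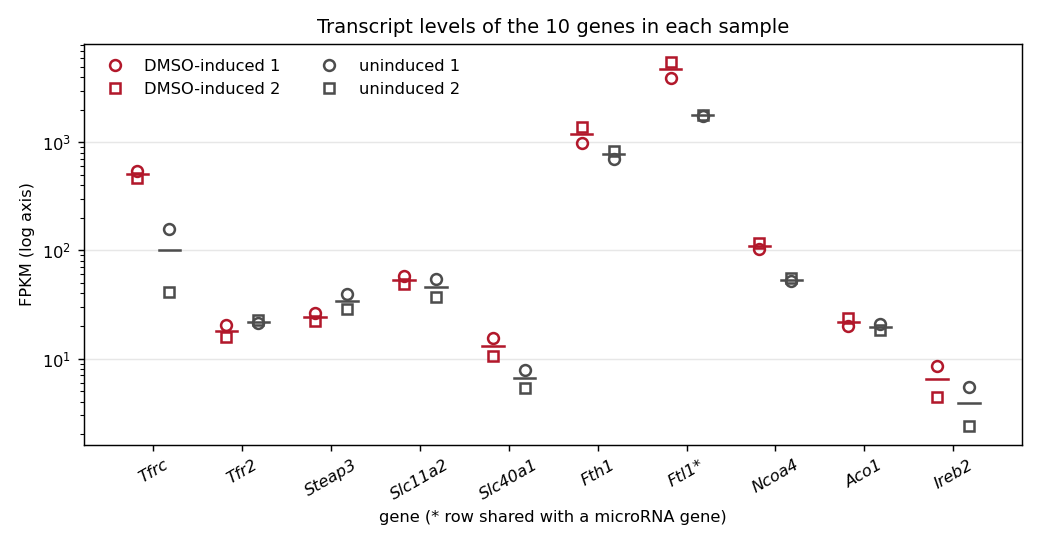
FPKM of each gene (log axis) in the 2 DMSO-induced (left of each pair) and the 2 uninduced samples, with circles for replicate 1, squares for replicate 2 and short lines for group means. Ftl1, Fth1 and Tfrc have the highest group means in both groups, the uninduced Tfrc values stand far apart at 159 and 41.0 FPKM, and the groups separate without overlap for 7 genes.

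Tfrc encodes transferrin receptor 1, the main entry route of transferrin iron into erythroid cells (chromosome 16, 32608920 to 32632794, GRCm38). Its transcript measured 542 and 469 FPKM in DMSO-induced 1 and 2, against 159 and 41.0 FPKM in uninduced 1 and 2. Both induced values stood above both uninduced values, and the uninduced samples differed from each other more than the induced samples did. The mean of 506 ± 51.1 FPKM in DMSO-induced samples was 5.06 times that in uninduced samples, which had an SD of 83.3 FPKM (n = 2 each). This was a log2 fold change of 2.62 ± 0.64 with a 95% interval of 0.99 to 4.25 (limma adjusted p = 0.0405). Only 2.3% of tested loci had a larger absolute log2 fold change. Without uninduced 2 the log2 fold change was 1.66 (limma adjusted p = 0.0831), and without uninduced 1 it was 3.59 (adjusted p = 0.0605).

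The low Tfrc value of uninduced 2 accompanied a difference between the uninduced samples that moved with transcript length. Uninduced 2 minus uninduced 1 was -1.93 for Tfrc on the log2(FPKM + 1) scale, lower than in all but 0.318% of the tested loci. For loci whose longest transcript has 1 to 1000 bases the median of this difference was 0.08, for 4001 to 5000 bases, the range that holds Tfrc with 4890 bases, it was -0.19, and for longer ones, which include Steap3 and Ireb2, it was -0.27. The median log2 fold change between the groups was 0.02, 0.21 and 0.31 for these same 3 length ranges, and was lowest at -0.15 for 1001 to 2000 bases. These length ranges were chosen after seeing the data. In the range of 4001 to 5000 bases, Slc11a2 also stood lower in uninduced 2 (-0.56) but Ncoa4 did not (0.09). The part of transcript length in the results for Tfrc, Slc11a2, Ncoa4, Steap3 and Ireb2 was not tested. Nor was it tested for the other gene lists below, whose calls and medians are set beside loci of all lengths.

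Tfr2 encodes the second transferrin receptor, which in erythroid cells associates with the erythropoietin receptor (chromosome 5, 137569840 to 137587481). It measured 20.4 and 15.8 FPKM in DMSO-induced samples, against 21.3 and 22.5 FPKM in uninduced samples. The induced values lay just below the uninduced ones, and the log2 fold change of -0.27 ± 0.21 (95% interval -0.81 to 0.27) did not pass (limma adjusted p = 0.374). Within a sample there were 26.6 and 29.7 times as many Tfrc as Tfr2 FPKM in DMSO-induced 1 and 2, against 7.48 and 1.82 times in uninduced 1 and 2. The log2 ratio of Tfrc to Tfr2 was 4.81 ± 0.11 in DMSO-induced and 1.88 ± 1.44 in uninduced samples, a difference of 2.93 (two-sided exact permutation p = 0.333, which no result from 2 samples per group can go below).

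**Figure D3:**
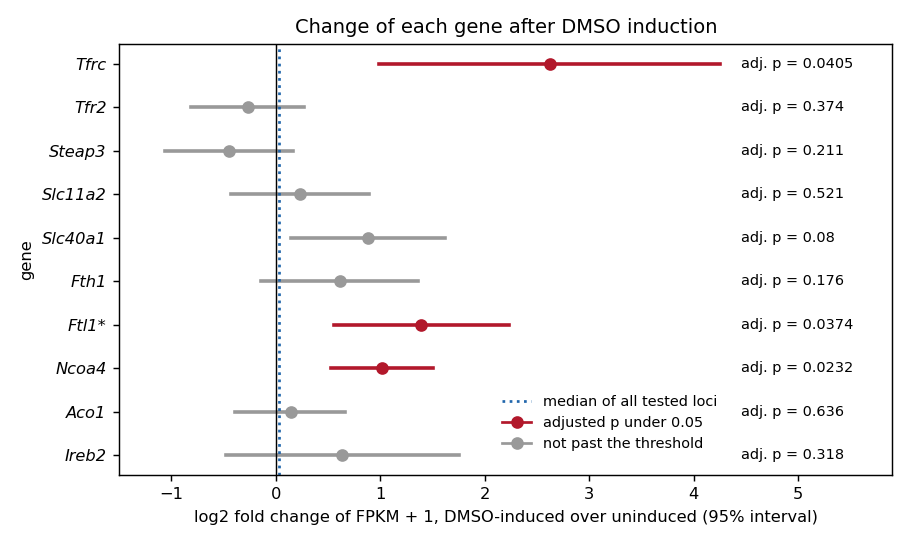
Log2 fold change of each gene (point) with its 95% interval (line), DMSO-induced over uninduced, in red where the adjusted p was under 0.05. Tfrc, Ftl1 (row shared with a microRNA gene, marked *) and Ncoa4 stand apart from 0 at log2 fold changes of 2.62, 1.39 and 1.02, and the interval of Slc40a1 also stays above 0 although its adjusted p of 0.08 missed the threshold.

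The genes for the reduction of iron in the endosome and its export from there did not pass the test. Steap3, the ferrireductase that turns ferric into ferrous iron in the endosome of erythroid precursors (chromosome 1, 120190757 to 120272705), measured 26.6 and 22.2 FPKM in DMSO-induced samples and 39.3 and 28.6 FPKM in uninduced samples. All induced values were lower, but the log2 fold change of -0.45 ± 0.24 (95% interval -1.06 to 0.16) did not pass (limma adjusted p = 0.211). Slc11a2, the divalent metal transporter DMT1 (chromosome 15, 100387898 to 100425072), measured 57.4 and 49.2 FPKM in DMSO-induced and 54.9 and 36.9 FPKM in uninduced samples. Its groups overlapped, with a log2 fold change of 0.23 ± 0.26 (95% interval -0.43 to 0.89, limma adjusted p = 0.521). That sign turned to -0.05 without uninduced 2. The Slc11a2 row overlaps Gm5475 on the opposite strand, whose own row was at most 0.22 FPKM.

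Slc40a1 encodes ferroportin, the known exporter of iron from cells to plasma (chromosome 1, 45908068 to 45926523). It measured 15.5 and 10.5 FPKM in DMSO-induced samples, against 7.76 and 5.38 FPKM in uninduced samples. Both induced values were above both uninduced values, yet the log2 fold change of 0.88 ± 0.29 (95% interval 0.14 to 1.62) did not pass when adjusted over all loci (limma adjusted p = 0.08). It passed when the fit held only loci with exactly 1 symbol (adjusted p = 0.0464). Ferroportin is also abundant in iron-recycling macrophages, of whose 7 markers 6 stayed under 1 FPKM in every sample. Cd68 was lower in DMSO-induced than in uninduced samples, as given above. Csf1r was higher, but its values were too low to be tested. The defining markers Adgre1 and Vcam1 were at most 0.02 FPKM and listed at 0. The part of macrophages in the Slc40a1 values was not tested.

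The ferritin light chain had the highest level of the 10 genes. Ferritin is a hollow shell of heavy chains, which oxidise iron, and light chains, which help it to mineralise. The Ftl1 row (chromosome 7, 45457944 to 45459884) measured 3938 and 5492 FPKM in DMSO-induced samples, against 1764 and 1781 FPKM in uninduced samples. The uninduced samples lay close together, and both induced samples were higher. The row averaged 4715 ± 1099 FPKM in DMSO-induced and 1772 ± 11.8 FPKM in uninduced samples, a log2 fold change of 1.39 ± 0.33 (95% interval 0.56 to 2.23, limma adjusted p = 0.0374).

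The Ftl1 value is uncertain because of near-identical copies. Of all 50-base stretches of its transcript, 90.6% also occur in a transcript of at least 1 of 17 other genes, most of them annotated as processed pseudogenes or microRNA genes. That share includes Gm22133 (6.53%) and Gm10252 (33.4%), which overlap Ftl1 itself and are not copies elsewhere. The share without these genes was not computed. Of the 17 genes, Ftl1-ps1 alone, annotated as protein-coding, holds 73.4%. Apart from Gm22133, whose row is that of Ftl1, the genes with a row of their own were at or under 0.74 FPKM in every sample. Copies without a matched row, Ftl1-ps1 among them, were not analysed here. Gm10252 overlaps Ftl1 on the opposite strand, and whether reads were counted by strand is unknown.

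Fth1, the ferritin heavy chain with the ferroxidase site (chromosome 19, 9980598 to 9985098), measured 981 and 1396 FPKM in DMSO-induced and 702 and 838 FPKM in uninduced samples. Both induced values were higher, but the log2 fold change of 0.61 ± 0.29 (95% interval -0.14 to 1.36) did not pass (limma adjusted p = 0.176). Only 6.59% of its 50-base stretches occur elsewhere, all in the pseudogene Gm6977, listed at 0 in every sample.

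The ratio of the ferritin rows did not overlap between the groups. Within a sample, Fth1 stood at 0.249 and 0.254 of Ftl1 in DMSO-induced 1 and 2, against 0.398 and 0.471 in uninduced 1 and 2. The log2 ratio was -1.99 ± 0.02 in DMSO-induced and -1.21 ± 0.17 in uninduced samples, a difference of -0.78 (two-sided exact permutation p = 0.333, the smallest possible). This ratio does not depend on the scaling between samples, but carries the uncertainty of the Ftl1 row. Together the ferritin rows took 0.395% and 0.626% of the summed FPKM in DMSO-induced samples, against 0.234% and 0.198% in uninduced samples (exact permutation p = 0.333).

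**Figure D4:**
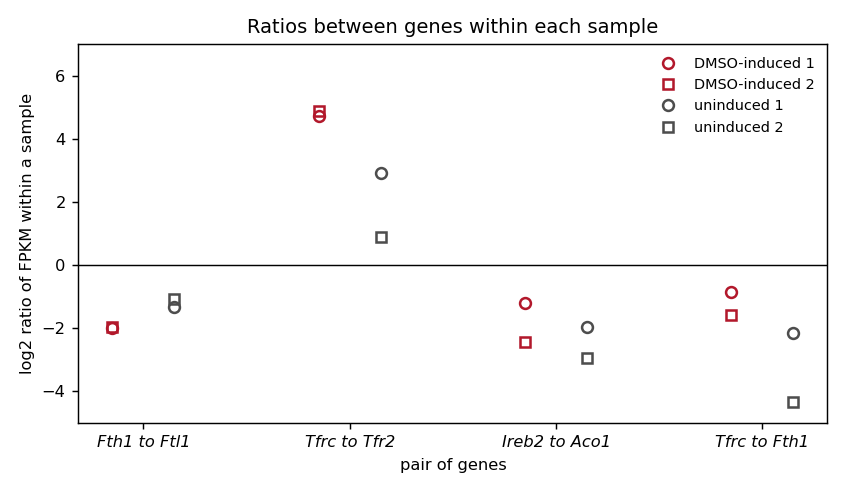
Log2 ratios of FPKM between 4 pairs of genes within each sample, with DMSO-induced samples in red to the left of uninduced samples in grey, circles for replicate 1 and squares for replicate 2. The ratio of Fth1 to Ftl1 is lower and those of Tfrc to Tfr2 and of Tfrc to Fth1 are higher in both DMSO-induced samples than in either uninduced sample, while the ratio of Ireb2 to Aco1 overlaps between the groups.

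Ncoa4 had the smallest adjusted p of the 10. It encodes the receptor that binds ferritin heavy chains and delivers ferritin to the autophagosome, which frees its iron (chromosome 14, 32159865 to 32179855). It measured 102 and 117 FPKM in DMSO-induced samples, against 51.9 and 55.2 FPKM in uninduced samples. Replicates of a group lay close together and the groups were well apart. The means were 109.7 ± 10.8 and 53.5 ± 2.3 FPKM in DMSO-induced and uninduced samples, a log2 fold change of 1.02 ± 0.19 (95% interval 0.53 to 1.5, limma adjusted p = 0.0232). Its transcript shares 43.1% of its 50-base stretches with the processed pseudogene Gm6768, which was at or under 0.08 FPKM in every sample.

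The iron regulatory proteins did not pass. Aco1, a cytosolic aconitase that becomes IRP1 when it loses its iron-sulfur cluster (chromosome 4, 40143081 to 40198338), measured 19.9 and 23.8 FPKM in DMSO-induced and 21.1 and 18.4 FPKM in uninduced samples. The groups overlapped, with a log2 fold change of 0.14 ± 0.21 (95% interval -0.39 to 0.66, limma adjusted p = 0.636). Ireb2, which encodes IRP2, a protein known to be degraded when iron is plentiful (chromosome 9, 54863789 to 54912530), had the lowest level of the 10, with 8.54 and 4.43 FPKM in DMSO-induced and 5.42 and 2.36 FPKM in uninduced samples. Its replicates spread more than the groups differed (log2 fold change 0.63 ± 0.44, 95% interval -0.48 to 1.75, limma adjusted p = 0.318). Replicate 2 was the lower 1 in both groups, and uninduced 2 minus uninduced 1 was -0.93, lower than in all but 3.69% of tested loci. Per length, Ireb2 stood at 0.429 and 0.186 of Aco1 in DMSO-induced 1 and 2 and at 0.257 and 0.128 in uninduced 1 and 2 (exact permutation p = 0.667).

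By mean FPKM, the order of levels in DMSO-induced samples was Ftl1, Fth1, Tfrc, Ncoa4, Slc11a2, Steap3, Aco1, Tfr2, Slc40a1 and Ireb2. In uninduced samples it was the same except that Tfr2 stood above Aco1. In DMSO-induced samples Steap3 and Aco1, and Aco1 and Tfr2, had overlapping ranges. In uninduced samples the neighbours Tfrc and Ncoa4, Ncoa4 and Slc11a2, Slc11a2 and Steap3, and Slc40a1 and Ireb2 overlapped. Tfrc thus stood clear of Ncoa4 in DMSO-induced but not in uninduced samples. The ratio of Tfrc to Fth1 was 0.552 and 0.336 in DMSO-induced 1 and 2, against 0.226 and 0.0489 in uninduced 1 and 2, a log2 difference of 2.03 (exact permutation p = 0.333).

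Every tested mRNA with a known IRE had a positive log2 fold change, but not all passed the test. The lowest, 0.23 for Slc11a2, came from groups that overlapped, and the median of all tested loci was 0.03. Whether these genes differed from each other was not tested. Of 5 listed for the element in the 5′ UTR, 4 were tested, and 2 of these rose (Alas2 and Ftl1), none fell and 2 did not pass (Fth1 and Slc40a1), beside 11.5% called higher over all tested loci. Alas2 measured 1490.3 and 3339 FPKM in DMSO-induced and 42.2 and 63.8 FPKM in uninduced samples (log2 fold change 5.40 ± 0.45). The hypoxia factor Epas1 was at most 0.01 FPKM and not tested. In the mouse transcript used for it, no hairpin matched in the 5′ UTR at 5 or 4 stem pairs.

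Of the 6 listed for an element in the 3′ UTR, 5 were tested: Tfrc, Cdc42bpa and Pfn2 rose, none fell, and Slc11a2 and Cdc14a did not pass, against 11.5% called higher over all tested loci. Cdc42bpa, a kinase of the cytoskeleton, measured 12.6 and 9.02 FPKM in DMSO-induced and 5.25 and 3.99 FPKM in uninduced samples (1.06 ± 0.26, limma adjusted p = 0.0413). Pfn2, an actin-binding profilin, measured 6.57 and 6.0 FPKM in DMSO-induced and 2.42 and 1.15 FPKM in uninduced samples (1.42 ± 0.29, adjusted p = 0.0279). Cdc14a, a phosphatase, measured 5.34 and 5.28 FPKM in DMSO-induced and 3.87 and 3.36 FPKM in uninduced samples (0.45 ± 0.21, adjusted p = 0.156). In the mouse transcripts used for Cdc42bpa and Pfn2 no hairpin matched at 5 or 4 stem pairs, and Cdc14a matched at 4. The oxidase Hao1, which also matched at 4, was at most 0.03 FPKM and not tested.

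Among 24 other genes of cellular and systemic iron handling, 15 stayed under 1 FPKM in every sample, including the hepatic hormone Hamp, the receptor partner Hfe and the reductases Steap1, Steap2 and Steap4. Of the 9 tested, 4 rose, 1 fell and 4 stayed above the threshold; their median log2 fold change was 0.13, against 26.2% called and a median of 0.03 for all tested loci. Fam132b, the gene of the erythroid hormone erythroferrone, measured 9.35 and 10.8 FPKM in DMSO-induced and 2.07 and 2.86 FPKM in uninduced samples (log2 fold change 1.68 ± 0.23, limma adjusted p = 0.0152). Fbxl5, the iron-sensing ubiquitin ligase subunit that marks IRP2 for breakdown, measured 34.5 and 39.5 FPKM in DMSO-induced and 20.4 and 16.02 FPKM in uninduced samples (0.99 ± 0.21, adjusted p = 0.0314). Slc39a8, a zinc, manganese and iron importer, measured 37.4 and 29.9 FPKM in DMSO-induced and 17.2 and 13.5 FPKM in uninduced samples (1.09 ± 0.23, adjusted p = 0.0296). Slc22a17, a receptor for lipocalin, also rose (1.01 ± 0.25, limma adjusted p = 0.0412), a call that was lost with a pseudocount of 0.1. The gene that fell was Pcbp1, an iron chaperone that loads ferritin, with 19.1 and 16.4 FPKM in DMSO-induced and 40.8 and 55.1 FPKM in uninduced samples (-1.37 ± 0.23, limma adjusted p = 0.0199).

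The step after the endosome, import of iron into mitochondria, was represented by 2 genes. Slc25a37, mitoferrin 1, the importer of erythroid cells, measured 57.2 and 58.6 FPKM in DMSO-induced and 11.2 and 8.61 FPKM in uninduced samples (log2 fold change 2.44 ± 0.21, limma adjusted p = 0.00919). Its paralog Slc25a28 measured 17.5 and 18.6 FPKM in DMSO-induced and 20.96 and 22.4 FPKM in uninduced samples and did not pass (-0.25 ± 0.19, adjusted p = 0.344).

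Of 23 genes that carry the transferrin receptor through its cycle, 22 had a row and 21 were tested: 5 rose, 1 fell and 15 stayed above the threshold, and the median log2 fold change was 0.52, against 26.2% called and a median of 0.03 over all tested loci. The risen genes were Rab5b of early endosomes (26.4 and 35.1 FPKM in DMSO-induced, 11.9 and 10.8 FPKM in uninduced samples, 1.35 ± 0.22), the recycling factors Ehd1 and Rab11a, whose row it shares with AC147560.1, and Dnm2 and Picalm, which act in clathrin-coated vesicle formation. The gene that fell was Ap2a1, a subunit of the clathrin adaptor AP-2, with 21.2 and 25.4 FPKM in DMSO-induced and 48.1 and 38.4 FPKM in uninduced samples (-0.86 ± 0.22, limma adjusted p = 0.0442). Ap2a1 missed the threshold under quantile normalization and under scaling to a total that leaves out globins and the most abundant loci, and Dnm2 and Picalm under at least 1 of the 3 other scalings. Dnm2 and Picalm had passed only narrowly (limma adjusted p = 0.0499 and 0.0474). Both also missed the threshold with a pseudocount of 0.1 and in a limma fit without trend. Exoc6 and Snx3, known from mouse or cell studies of transferrin receptor recycling, did not pass, with log2 fold changes of 0.38 ± 0.19 and 0.28 ± 0.21 (limma adjusted p = 0.191 and 0.363).

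Of 12 partners of ferritin autophagy, 11 were tested: 5 rose, none fell and 6 stayed above the threshold, and the median log2 fold change was 0.86. Over all tested loci 11.5% were called higher, and the median was 0.03. Rb1cc1, a scaffold of autophagosome initiation, measured 22.9 and 18.9 FPKM in DMSO-induced and 7.75 and 4.35 FPKM in uninduced samples (1.67 ± 0.30, limma adjusted p = 0.0223). The LC3 family genes Map1lc3a, Gabarap and Gabarapl2 rose with log2 fold changes of 2.29, 1.50 and 0.86. The row of Atg9a, shared with the porphyrin transporter Abcb6, also rose (1.22 ± 0.22). Herc2, a ubiquitin ligase known to bind NCOA4 in iron-replete human cells, measured 13.3 and 11.7 FPKM in DMSO-induced and 7.45 and 6.45 FPKM in uninduced samples and did not pass (0.76 ± 0.21, adjusted p = 0.0518). Tax1bp1, an autophagy adaptor for NCOA4, did not pass either (0.88 ± 0.34, adjusted p = 0.116).

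**Figure D5:**
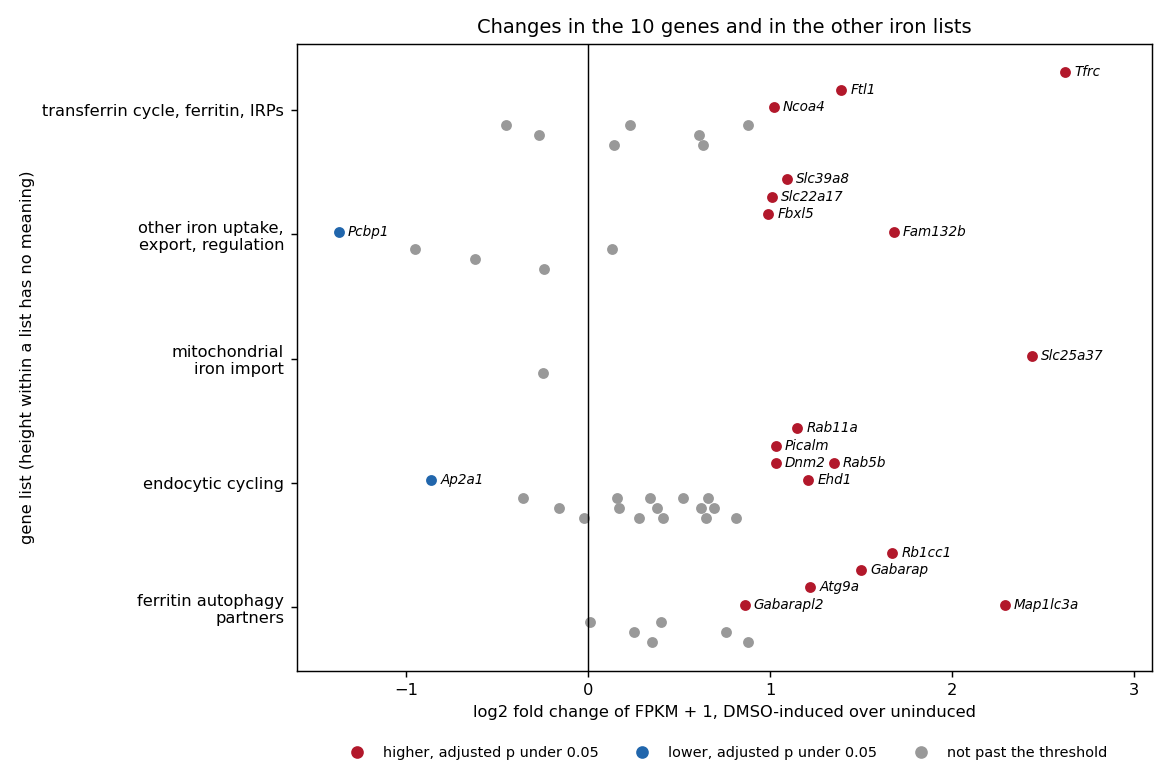
Log2 fold change of every tested gene in the 10 genes and 4 other iron lists, DMSO-induced over uninduced, with called genes named and coloured red (higher) or blue (lower) and the others grey. Tfrc at 2.62, Slc25a37 at 2.44 and Map1lc3a at 2.29 lie farthest to the right, and Pcbp1 at -1.37 and Ap2a1 at -0.86 are the only genes called lower in these 5 lists.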

How the data were processed

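RNA-seq of 4 MEL cell samples was analysed, 2 DMSO-induced and 2 uninduced, grouped by their titles. Trizol extraction and Ribo-Zero depletion were used, per the labels' protocols. TopHat2 and GRCm38 are named by the submitters' processing notes; versions, quantifier and strandedness are not given in the sources used here. From the authors came a table with 1 FPKM column per sample; the FPKM unit was inferred from Cufflinks-type columns, per the file headers, and from the values.

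Loci that reached 1 FPKM in 2 or more samples were fitted on log2(FPKM + 1) with limma 3.58.1 in R 4.3.3 (trended eBayes, group as the only term), with Benjamini-Hochberg adjustment over all 12890 loci at 0.05. The fit was tested on simulated data with 200 or 3400 of 12890 loci changed. It recovered 9.11% and 76.8% of 2-fold changes and 90% and 98.5% of 4-fold changes. Of its calls 7.92% and 3.5% were false. The simulation drew normal noise for each locus independently. It held no difference between samples shared by many loci, such as that by transcript length, so these shares may not apply to the real calls. Ratios and shares used two-sided exact permutation tests over 6 arrangements. Depth steps came from 1441 single-exon genes of 380 to 520 bases. Transcripts, gene positions and the 50-base comparison came from GENCODE M21. All 10 genes, the IRE genes analysed (1 gene of the original list is not reported here) and, from the other lists, called genes were named; Slc25a28, Exoc6, Snx3, Herc2, Tax1bp1, Hamp, Hfe, Steap1, Steap2 and Steap4 were named after their values were seen. Members and lists were chosen with earlier results of these data known. Rab4a and Map1lc3b were not analysed here. The alternatives are 3 other scalings, 2 other filters, another pseudocount, a replicate block, removal of each sample, of loci listed at 0 and of loci without exactly 1 symbol, and eBayes without trend.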

Additional observations from a re-analysis of the deposited data

How the results depend on the processing

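The direction of 9 of the 10 genes held under every alternative run; Slc11a2 turned to -0.05 without uninduced replicate 2 (range over samples left out -0.05 to 0.51). The 3 calls held under the other scalings, the 5 FPKM filter, the pseudocount of 0.1, the replicate block, removal of loci listed at 0 and eBayes without trend; Ftl1 has no value with 1-symbol loci only, since its row is shared. Without a filter, which tests more loci, the log2 fold changes of Tfrc, Ftl1 and Ncoa4 stayed at 2.62, 1.39 and 1.02 but none passed (limma adjusted p = 0.127, 0.149 and 0.0605), 0 of the 10 genes were called, the whole table had 7 loci called higher and 23 lower, and each other iron list had 0 in both directions. With 1 sample left out, which leaves a lone sample assumed to vary like the others, log2 fold changes ran from 1.66 to 3.59 for Tfrc, 1.15 to 1.63 for Ftl1 and 0.92 to 1.12 for Ncoa4, with 0 of the 10 genes called. Loci called higher then ran from 0 to 180 and lower from 14 to 306, against 1478 and 1899 with all samples. The calls in the lists of other iron genes, endocytic genes and 3′ UTR IRE genes fell to 0, and those among ferritin autophagy partners and 5′ UTR IRE genes to between 0 and 1. Endocytic genes called higher numbered 3 under median-of-ratios scaling, a pseudocount of 0.1 and eBayes without trend, and those called lower 0 under quantile normalization and scaling to a total without globins and the 10 top loci; the cause was not tested.

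The replicate numbers did not establish pairing: same-numbered samples deviated together with a correlation of 0.17 over loci, from 2 pairs. With the replicate block Slc40a1 passed (log2 fold change 0.88, limma adjusted p = 0.0324), 2 other iron genes were called lower instead of 1, and no other call among the 10 genes changed. Slc40a1 also passed with 1-symbol loci only, at 0.88. The differences in ratios and in the ferritin share kept their sign under each alternative run. Fragment numbers were estimated, not given, so no counting interval is printed.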
